A study of Mus musculus with 4 samples.

Results

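Alveolar macrophage genes were followed across the lungs of mice with and without treadmill exercise and with and without tumor. The set held 10 named genes, Fabp1, Marco, Ear1, Ear2, Atp6v0d2, Mrc1, Ctsk, Plet1, Siglec5 and Cidec, and its members were the rows of the lung data that carried one of these symbols. Of the 10, 9 had a row among the 23282 rows of the series, and Siglec5 had none. All 9 were among the 15164 rows whose normalized read count averaged 4 or more over the libraries. The genes were chosen by their log2 values over these same 4 libraries, so their levels and differences are given as a description and no test was made on them.

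Lung RNA came from 4 libraries, 1 for each group of 10 male CDF1 mice. The groups were the normal control, E(-)T(-), with neither exercise nor tumor, the normal exercise group, E(+)T(-), the cancer control, E(-)T(+), and the cancer exercise group, E(+)T(+). Exercise was high-intensity aerobic running on a treadmill. Tumor-bearing mice were given an injection into the tail vein of CT26, a colorectal carcinoma line of mouse origin, and this route carries the cells to the lung. The labels give postnatal day 28 for all mice, which is close to the age at purchase in the study's methods and may not be the age at sampling. The study took muscle RNA from 1 representative mouse per group and calls its work on the lungs similar, but the sources used here do not state for the lung itself whether a library stands for 1 mouse or for a pool. Below, 4 values in a row stand for the control, exercise alone, tumor alone and both, in that order, and are levels on the scale log2(normalized count + 1) unless reads or sums are named. A difference is a log2 value too, and where genes are counted as higher or lower the limit is 2-fold unless another is named. The exercise effect sets an exercised library against its resting partner, and the tumor effect sets a tumor-bearing library against the tumor-free library of like training. Counts in gene lists are to be read beside the shares of the 15164 filtered rows past the limit. Without tumor, exercise had 5.28% higher and 4.7% lower, and with tumor 24.3% and 17.7%. Without exercise, tumor had 20.6% higher and 25.7% lower, and with exercise 14.9% and 13%. There was no replicate in any group, so no difference below has a replicate check, and every interval covers counting error only.

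Alveolar macrophages live on the air side of the alveolus, where they take up inhaled particles and used surfactant. They arise from fetal monocytes, and their identity depends on GM-CSF and TGF-beta signals and on the nuclear receptor PPAR gamma, which also controls their lipid handling. They are known for a high load of lipid and lysosomal genes and for surface proteins that set them apart from the interstitial and monocyte-derived macrophages of the lung tissue. In whole lung RNA, fewer cells of a type and less RNA per cell cannot be told apart.

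Of the 9 members, 6 formed a group that was high in both tumor-free libraries, lowest in E(-)T(+), and higher again in E(+)T(+). These were Fabp1, Ear1, Ear2, Cidec, Atp6v0d2 and Plet1. Marco had the opposite order, with its lowest values in the tumor-free libraries and its highest in E(-)T(+). Ctsk and Mrc1 stayed within 2-fold in both tumor effects, with the exception for Mrc1 given below under another scaling. The label of the set therefore covers genes that did not move as 1 group in these lungs.

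**Figure D1:**
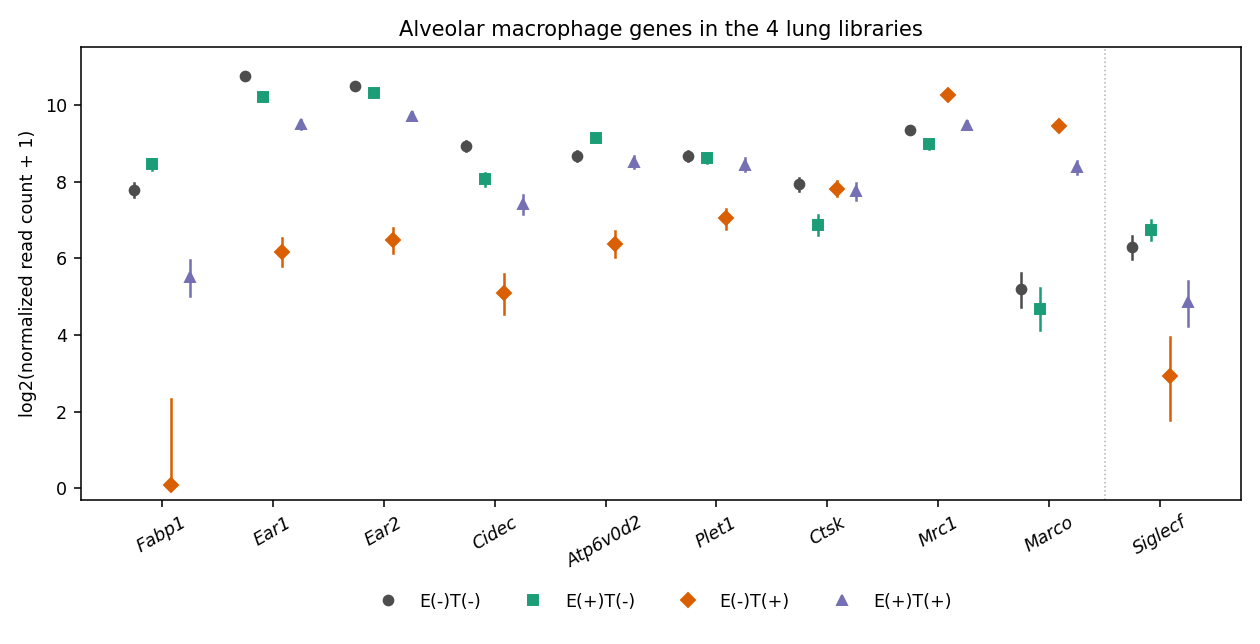
Level of each member and of Siglecf (right of the dotted line, not a member) in the 4 lung libraries, as log2(normalized read count + 1). Symbols mark the library, and vertical bars are exact 95% Poisson intervals of the recovered reads carried to the same scale. The E(-)T(+) symbol is the lowest of the 4 for the first 6 genes and the highest for Mrc1 and Marco.

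The libraries held between 9354530 and 13368047 reads assigned to genes. The smallest abundance that this depth can show, taken as 3 reads, was between 0.224 and 0.321 CPM, the reads scaled to a common library total. Hemoglobin genes took 14.3%, 14.2%, 1.43% and 31.4% of the reads. Scaling by library totals alone, in place of the authors' normalization, moved the median log2 difference of all filtered genes to -0.59 when E(+)T(+) was set against E(-)T(+), and to -0.41 when it was set against E(+)T(-). The labelled tissue was checked with epithelial genes, and the surfactant gene Sftpc had at least 11268 reads and the club cell gene Scgb1a1 at least 106838 reads in every library.

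A sequence feature that the choice of the genes did not use is shown first. Promoter windows, 250 bases before to 50 bases after a gene's start, were given by RefSeq (GRCm38.p6) for 8 members, and Atp6v0d2 had no entry. Of 6 motifs searched on both strands, TTGCNNAA, a core of the sites read by C/EBP factors, was found in the windows of 6 of the 8 members, Fabp1, Cidec, Ctsk, Plet1, Ear1 and Ear2. It was found for 12.2% of all 27025 gene symbols with windows and in 10.8% of all 32851 windows. The windows of Marco and Mrc1 did not hold these letters. The stretches around the matches are printed 5′ to 3′ on the strand of the gene, with the match in capitals.
Ear1 (chr14:43819684-43819771, minus strand): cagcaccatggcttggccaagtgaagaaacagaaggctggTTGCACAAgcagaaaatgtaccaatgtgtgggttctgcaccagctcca
Ear2 (chr14:44102524-44102611, plus strand): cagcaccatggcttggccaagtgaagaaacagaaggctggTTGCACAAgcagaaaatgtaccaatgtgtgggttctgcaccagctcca
Fabp1 (chr6:71199665-71199752, plus strand): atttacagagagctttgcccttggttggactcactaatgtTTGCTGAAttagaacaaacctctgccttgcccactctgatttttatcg
Cidec (chr6:113434915-113435002, minus strand): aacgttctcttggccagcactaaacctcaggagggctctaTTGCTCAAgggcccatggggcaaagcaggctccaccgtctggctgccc
Plet1 (chr9:50494287-50494374, plus strand): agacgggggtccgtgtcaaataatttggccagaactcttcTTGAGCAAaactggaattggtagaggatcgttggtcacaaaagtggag
Ctsk (chr3:95499094-95499259, plus strand): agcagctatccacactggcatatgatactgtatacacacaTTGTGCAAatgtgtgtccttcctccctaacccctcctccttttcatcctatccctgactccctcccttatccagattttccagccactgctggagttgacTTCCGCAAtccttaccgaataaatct

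Counted from the transcript start that RefSeq gives for the window, the match began at base -92 in Ear1, -90 in Ear2, -174 in Fabp1 and -198 in both Cidec and Plet1, while Ctsk held a match at -76 and another at 24. The starts used for Ear1, for Fabp1 and for the Cidec window with the match, which is 1 of 2, lie inside the GENCODE span given for the gene below. The 88 printed bases of Ear1 and Ear2 were the same, and their whole windows were 97.0% identical over 303 aligned columns, with 3 mismatched and 6 gapped columns. The pair therefore counts as 1 sequence rather than as 2 separate matches. The AP-1 motif TGANTCA was found in the windows of Cidec and Plet1, and for 8.97% of all symbols. The PU.1 motif GAGGAAGT, the M-box TCATGTG, the E-box CACGTG and the repeat of AGGTCA with 1 base between its copies that PPAR and RXR read, which match 3.69%, 4.31%, 8.09% and 0.0481% of all symbols, were found in no member's window. No TTGCNNAA match overlapped a TGANTCA match, and a match describes the sequence alone.

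Fabp1 encodes the liver-type fatty acid binding protein, which carries fatty acids in the cytoplasm and lies at chr6:71199827-71205023 (GRCm38, plus strand, 4 exons). Its level, as log2(normalized count + 1), was 7.78 in the control, 8.45 with exercise alone, 0.09 with tumor alone and 5.51 with both, from 257, 380, 0 and 38 reads. The tumor-free libraries were high and E(-)T(+) was by far the lowest. No read was found in E(-)T(+), which allows up to 0.321 CPM there. On the authors' normalization and against that floor of 3 reads, Fabp1 was at least 66.4-fold lower in E(-)T(+) than in E(-)T(-). On the same terms it was at least 13.5-fold higher in E(+)T(+) than in E(-)T(+). The bounds take that floor and the reads of the other library as they stand. By totals alone, E(-)T(-) was at 19.7 CPM and E(+)T(+) at 2.84 CPM, against 0.321 CPM, which gives smaller folds. The exact 95% intervals of the log2 read ratio, which add the counting error of both libraries, ended at -5.75 for the first and began at 3.39 for the second, and so allow smaller folds. E(+)T(+) still held only 20.4% of the normalized count of E(-)T(-). All neighbours in the order of the levels differed beyond counting error.

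Genes of hepatocytes and enterocytes, the cells best known for Fabp1, were read beside it. The summed normalized count of the 15 listed genes was 56.5, 113, 382 and 688. A few genes carry this sum, with Fgb at 6, 10, 196 and 118 reads and Alb at 10, 27, 72 and 178 reads. Of the 15, 8 passed the filter. By 2-fold or more, 5 of the 8 were higher and none lower in the tumor effect without exercise. In the exercise effect with tumor 5 were higher and 1 lower, and in the tumor effect with exercise 7 were higher and none lower. Hnf4a, Cdx2 and Lgals4, also listed, had 0 reads in all 4 libraries. Others of the list had reads, with Cdh17 at 0, 2, 17 and 5 and Apoa1 at 2, 3, 23 and 64. The part of these cells in the Fabp1 values was not tested.

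Among the relatives of Fabp1, 3 of the 7 that passed the filter were lower by 2-fold or more in E(-)T(+) than in E(-)T(-) and 3 were higher. Fabp5, the epidermal form that alveolar macrophages also express, had log2 values of 10.81, 11.24, 8.92 and 10.73. Fabp3, the heart form, was at 7.24, 7.34, 5.13 and 7.08, and Fabp12 at 4.58, 5.41, 2.45 and 4.46. These 3 genes had the order of Fabp1, with the lowest value in E(-)T(+). Fabp4, the adipocyte form, had its highest value there, with 11.05, 9.51, 12.61 and 8.88. The retinoid carrier Crabp2 was at 1.78, 1.47, 5.55 and 5.07, and Fabp7 at 2.37, 1.48, 4.87 and 3.21.

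Cidec encodes a protein of the lipid droplet surface that lets droplets fuse and grow, and lies at chr6:113424634-113435760 (minus strand, up to 6 exons). It was measured at log2 values of 8.93, 8.06, 5.08 and 7.40, from 572, 290, 30 and 144 reads. The 4 levels were all apart beyond counting error. The difference was -3.84 between E(-)T(+) and E(-)T(-) (exact 95% interval, -4.47 to -3.36) and 2.32 between E(+)T(+) and E(-)T(+) (1.78 to 2.98), the latter 1.72 with totals alone. E(+)T(+) reached 34.6% of the level of E(-)T(-).

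Of the other lipid droplet genes, 4 of 10 were lower by 2-fold or more in E(-)T(+) than in E(-)T(-) and none was higher. G0s2, an inhibitor of the lipase Pnpla2, was at 9.27, 9.88, 5.49 and 8.36, and its tumor effect without exercise, -3.78, was close to that of Cidec. Hilpda, another lipase inhibitor, was at 12.29, 12.71, 10.89 and 12.09. Plin2, the droplet coat protein of macrophages, was within 2-fold in all 4 comparisons, with 10.62, 10.85, 10.04 and 10.52. Plin3, Plin4 and Cideb were within 2-fold in all 4 comparisons as well.

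Fat cells also express Cidec, and their genes differed between the libraries. Adipoq, the adipocyte hormone adiponectin, was at 8.13, 6.71, 6.42 and 5.84, and Plin1, which coats the droplets of fat cells, had 35, 18, 3 and 2 reads. Cidea had 147, 49, 51 and 45 reads. Of the 13 adipocyte genes past the filter, 8 were lower by 2-fold or more in E(+)T(-) than in E(-)T(-), and 8 in E(-)T(+) than in E(-)T(-). Only 1 was higher and 2 were lower in E(+)T(+) than in E(-)T(+). The summed normalized count of the list was 5944, 3723, 8685 and 4181, most of it Fabp4 in E(-)T(+), and Lep had 1, 1, 0 and 0 reads. The part of fat cells in the Cidec values was not tested.

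Ear1 and Ear2 encode eosinophil-associated ribonucleases, secreted proteins of the RNase A family that mouse alveolar macrophages also make. Ear1 lies at chr14:43818765-43875517 (minus strand) and Ear2 at chr14:44102654-44103534 (plus strand), each with up to 2 exons. Ear1 had log2 values of 10.75, 10.20, 6.18 and 9.49, from 2022, 1275, 65 and 615 reads. Ear2 had values of 10.49, 10.32, 6.47 and 9.71, from 1695, 1390, 80 and 716 reads. The order of the libraries was the same for both genes, and each step exceeded counting error.

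In E(-)T(+), Ear1 held 4.15% and Ear2 6.09% of the normalized count of E(-)T(-), differences of -4.57 (-4.97 to -4.24) and -4.02 (-4.38 to -3.71). In E(+)T(+) the shares were 41.8% and 58.1%. The difference between E(+)T(+) and E(-)T(+) was 3.32 for Ear1 (2.97 to 3.73) and 3.24 for Ear2 (2.92 to 3.61), and with totals alone 2.71 and 2.64. The genes are similar in sequence, and 53 of the 639 different stretches of 75 bases, the read length, in Ear1 transcripts also occur in Ear2. Over the Ear genes with transcripts in GENCODE M21, 13.3% of the stretches of Ear1 and 22.0% of those of Ear2 occur in another Ear gene. The division of some reads between them is therefore uncertain.

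The rest of the family followed in part. Ear3 and Ear12 had identical values in all 4 libraries, 8.02, 8.51, 5.49 and 7.07, and are treated as 1 uncertain measurement. Ear10 had 22, 18, 1 and 17 reads. Ang, an angiogenin, had log2 values of 6.44, 7.78, 5.04 and 6.39, and Rnase4 of 11.28, 11.44, 10.11 and 10.60. Rnase2a was higher in both tumor libraries, with 23, 36, 237 and 287 reads. Ear4, Ear7 and Ear14 had no read in any library. Counting Ear3 and Ear12 as 2 rows, 5 of the 6 relatives past the filter were lower by 2-fold or more in E(-)T(+) than in E(-)T(-) and 1 was higher.

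Several genes of eosinophils, after which the family is named, left few reads. Epx, the eosinophil peroxidase, had 0, 1, 0 and 0 reads, and the granule gene Prg3 had 0 in all 4 libraries. Prg2, the major basic protein, had 0, 12, 3 and 14 reads, Ccr3 had 4, 33, 0 and 4, and Ear6 had 0, 14, 0 and 2. The summed normalized count of the 8 listed eosinophil genes was 48.1, 171, 1170 and 253, the largest share being Il1rl1, a receptor of several cell types, with 917 reads in E(-)T(+). Alox15, also listed, had 22, 50, 147 and 81 reads. Of the 4 listed genes past the filter, 3 were higher and 1 lower by 2-fold or more in E(-)T(+) than in E(-)T(-). All 4 were higher by that limit in E(+)T(-) than in E(-)T(-). The part of eosinophils in the values of Ear1 and Ear2 was not tested.

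Atp6v0d2 encodes a subunit of the membrane part of the vacuolar proton pump (V-ATPase), which acidifies lysosomes, in a form found in macrophages and osteoclasts. It lies at chr4:19876841-19922605 (minus strand, up to 8 exons). The log2 values of Atp6v0d2 were 8.68, 9.14, 6.38 and 8.52, from 481, 613, 75 and 313 reads. E(+)T(+) was at 89.5% of E(-)T(-), a difference of -0.16 whose interval, -0.37 to 0.05, held 0, but which became -0.66 with totals alone. E(-)T(+) was at 20.1%, a difference of -2.30 (-2.69 to -1.96), and E(+)T(+) was above it by 2.14 (1.79 to 2.54), or by 1.54 with totals alone.

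Most other genes of the pump differed less. Of the 22 other subunit and accessory genes past the filter, 17 stayed within 2-fold between E(-)T(+) and E(-)T(-), 3 were lower and 2 were higher, with a median of -0.31. The widely expressed partner of the same position, Atp6v0d1, was at 8.96, 8.75, 9.23 and 9.69. Among the subunits with the most reads, Atp6v1f was at 11.94, 12.13, 12.08 and 12.23, Atp6v0e at 11.65, 11.74, 10.84 and 11.65, and Atp6v1g1 at 11.31, 11.30, 10.99 and 11.80. The subunit with a larger difference than Atp6v0d2 was Atp6v1c2, a form of lung and kidney epithelium, at 8.65, 8.28, 5.59 and 8.52. The highest difference was that of the accessory gene Atp6ap2, at 1.52.

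Plet1 encodes a small surface protein anchored by a lipid, known from progenitor cells of several epithelia and from alveolar macrophages and some dendritic cells. It lies at chr9:50494525-50505482 (plus strand, up to 4 exons), where exons of the antisense gene Plet1os overlap it outside the last 500 bases. The log2 values of Plet1 were 8.68, 8.61, 7.04 and 8.44, from 481, 425, 119 and 297 reads. The 3 libraries other than E(-)T(+) were close. The intervals between neighbours among them held 0, but E(+)T(+) over E(-)T(-) was -0.24 (-0.45 to -0.02), and -0.73 with totals alone. The difference was -1.64 between E(-)T(+) and E(-)T(-) (-1.95 to -1.36) and 1.41 between E(+)T(+) and E(-)T(+) (1.10 to 1.73). With libraries scaled by their totals alone the second was 0.80, under the 2-fold limit.

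**Figure D2:**
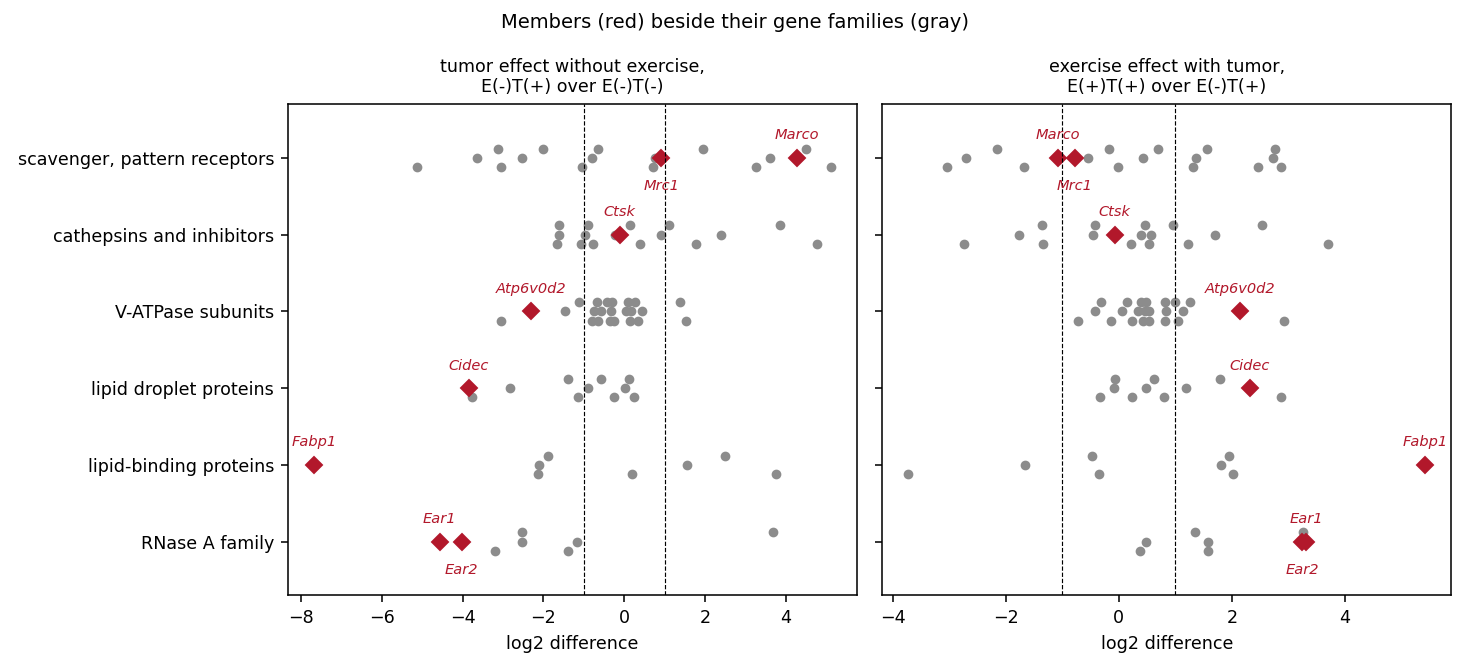
Difference of each gene of 6 families in the tumor effect without exercise (left) and the exercise effect with tumor (right), in log2 units, with members in red and the other genes past the filter in gray. Dashed lines mark 2-fold. In the left panel Fabp1, which had no read in E(-)T(+), lies beyond its relatives, and Atp6v0d2, at -2.30, lies apart from most pump subunits.

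Marco encodes a scavenger receptor with a collagen-like domain that binds bacteria and inhaled particles, and lies at chr1:120474538-120505024 (minus strand, up to 17 exons). Marco was at 5.19 in the control, 4.69 with exercise alone, 9.46 with tumor alone and 8.37 with both, from 42, 27, 641 and 283 reads. Both tumor libraries lay above both tumor-free libraries, and the tumor-free pair did not differ beyond counting error. E(-)T(+) was 19.2-fold above E(-)T(-), a log2 difference of 4.27 (3.85 to 4.79). E(+)T(+) was 12.9-fold above E(+)T(-), a log2 difference of 3.69 (3.17 to 4.36). E(+)T(+) was lower than E(-)T(+), by a difference of -1.08 (-1.29 to -0.88), or -1.69 with totals alone.

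Mrc1 encodes the mannose receptor CD206, which takes up sugar-coated proteins and is shared by alveolar and interstitial macrophages and lymphatic endothelium. It lies at chr2:14229392-14332057 (plus strand, up to 30 exons), with the microRNA gene Mir511 inside it. Its log2 values were 9.34, 8.97, 10.25 and 9.48, from 760, 546, 1113 and 608 reads. It was highest in E(-)T(+), at 189% of E(-)T(-), while E(+)T(+) over E(-)T(-) was 0.14 (-0.02 to 0.29), and turned to -0.36 with totals alone and to -0.04 without hemoglobin genes. Its differences of 0.92 in the tumor effect without exercise and -0.78 in the exercise effect with tumor became 1.03 and -1.39, past the 2-fold limit, with libraries scaled by totals alone.

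Other scavenger and pattern recognition receptors differed in both directions. Between E(-)T(+) and E(-)T(-), 5 of 16 were higher and 7 lower by 2-fold or more, beside 20.6% and 25.7% of all filtered rows. Msr1, scavenger receptor A, was at 5.09, 6.75, 10.20 and 9.66, the same order as Marco except in the tumor-free pair. Cd163, the hemoglobin and haptoglobin receptor, was at 5.74, 5.40, 9.01 and 7.33. Scara3 and Scara5 were higher in E(-)T(+) than in E(-)T(-) by 4.51 and 3.62. The lipid receptor Cd36 was at 12.11, 12.19, 8.45 and 11.32, Olr1, a receptor for oxidized lipoprotein, at 7.28, 6.63, 4.22 and 5.78, and Clec7a, the receptor for fungal glucans, at 9.67, 9.29, 7.13 and 9.89. These 3 genes were lowest in E(-)T(+).

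Ctsk encodes cathepsin K, a collagen-degrading protease of osteoclasts, fibroblasts and macrophages, and lies at chr3:95499256-95509362 (plus strand, 8 exons). Its log2 values were 7.93, 6.87, 7.82 and 7.75, from 285, 126, 205 and 183 reads. E(+)T(-) was the low library, at 47.8% of E(-)T(-), and the other three did not differ between neighbours beyond counting error, although with totals alone E(+)T(+) over E(-)T(+) was -0.68. The difference in the exercise effect without tumor was -1.06 (-1.38 to -0.76). Ctsk was the 1 member past the 2-fold limit in that comparison.

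No other cathepsin or related gene was past 2-fold in that comparison, in 16 measured. Ctsl, the lysosomal cathepsin L, was at 10.59, 10.74, 14.45 and 11.72, highest in E(-)T(+). Ctsb was at 11.27, 10.96, 12.38 and 11.93, Ctsd at 12.46, 12.53, 12.23 and 12.70, Ctss at 11.84, 11.95, 12.23 and 12.63, and Ctsh at 11.94, 12.24, 11.04 and 12.75. The inhibitor Cst3 was at 12.94, 12.70, 13.09 and 11.74. In the tumor effect without exercise the family had 5 genes higher, 4 lower and 7 within 2-fold. Over all filtered rows 20.6% were higher and 25.7% lower there.

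Cells other than macrophages that express Ctsk were read from their markers. The summed normalized count of 12 fibroblast genes was 12940, 12311, 38110 and 16378, with Col1a2 at 3086, 2763, 16384 and 2935 reads. The list did not move as a whole, since 4 of its genes were higher and 4 lower in E(-)T(+) than in E(-)T(-), and Postn had 1493, 1226, 43 and 299 reads. That of 12 osteoclast genes was 1489, 1782, 2408 and 6555, most of it in E(+)T(+) from Itgb3 and Mmp9, which platelets and neutrophils also express. The osteoclast fusion gene Dcstamp had 9, 10, 6 and 0 reads, and the calcitonin receptor Calcr 7, 0, 1 and 8. Acp5, also on this list, had 155, 160, 390 and 242 reads. Of the 11 osteoclast genes past the filter, 4 were higher and 1 lower by 2-fold or more in each tumor effect. The part of fibroblasts in the Ctsk values was not tested.

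Siglec5 is a synonym in RefSeq of both Siglecf and Siglece, and the files list neither under that symbol. Siglecf, the sialic acid-binding surface receptor by which mouse alveolar macrophages are commonly sorted, is therefore given as a gene outside the set, named after its values were seen. It lies at chr7:43351341-43359531 (plus strand). Siglecf was at log2 values of 6.29, 6.75, 2.94 and 4.87, from 91, 116, 6 and 24 reads. E(-)T(+) was the lowest library, and E(+)T(+) was at 36.4% of E(-)T(-). The difference was -3.36 between E(-)T(+) and E(-)T(-) (-5.04 to -2.38) and 1.93 between E(+)T(+) and E(-)T(+) (0.77 to 3.67). Siglec5 was also named among the eosinophil genes, and the part of eosinophils in the Siglecf values was not tested. Siglece had 26, 43, 11 and 94 reads, and Cd33 20, 29, 138 and 317.

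In the exercise effect without tumor, 1 of the 9 members was past the 2-fold limit, lower in E(+)T(-), and none was higher. Over all filtered rows 4.7% were lower and 5.28% higher by that limit, 9.98% in all. The median of the members was -0.36, against 0.00 for all rows. Fabp1 and Atp6v0d2 were the 2 members with a positive difference, of 0.67 (0.44 to 0.91) and 0.46 (0.29 to 0.64). Cidec, at -0.87 (-1.08 to -0.66), and Ear1, at -0.55 (-0.66 to -0.45), lay lower, and the intervals of Marco and Plet1 held 0.

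In the tumor effect without exercise, 6 of the 9 members were lower by 2-fold or more in E(-)T(+) and 1, Marco, was higher. The shares over all rows were 25.7% lower and 20.6% higher, 46.2% in all. The median of the members was -2.30, against -0.03 for all rows. Of all 15164 rows, 145 were lower than Ear1 and 269 were lower than Ear2, and Fabp1, known only as a bound, was not ranked.

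In the exercise effect with tumor, 6 of the 9 members were higher by 2-fold or more in E(+)T(+) and 1, Marco, was lower. Over all rows 24.3% were higher and 17.7% lower, 42% in all, and with libraries scaled by totals alone 16.4% were higher and 35.4% lower. The median of the members was 2.14, against 0.01 for all rows, and 1.54 with libraries scaled by totals alone, which left 5 members higher and 2 lower. This comparison and the one before share the library E(-)T(+), so a value that is off in that library alone would appear in both with opposite signs.

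The tumor effect with exercise does not use E(-)T(+). By 2-fold or more, 1 member, Fabp1, was lower here, with a difference of -2.94 (-3.50 to -2.49), and 1, Marco, was higher. Over all rows 13% were lower and 14.9% higher, 27.8% in all, and with totals alone 24.2% were lower and 9.5% higher. The median of the members was -0.61, against 0.00 for all rows. Ear1 was at -0.70, Cidec at -0.66, Atp6v0d2 at -0.62, Ear2 at -0.61 and Plet1 at -0.17, and the intervals of the first 4 lay below 0. With libraries scaled by totals alone those 4 were between -1.12 and -1.02, past the limit, and 5 members were then lower.

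**Figure D3:**
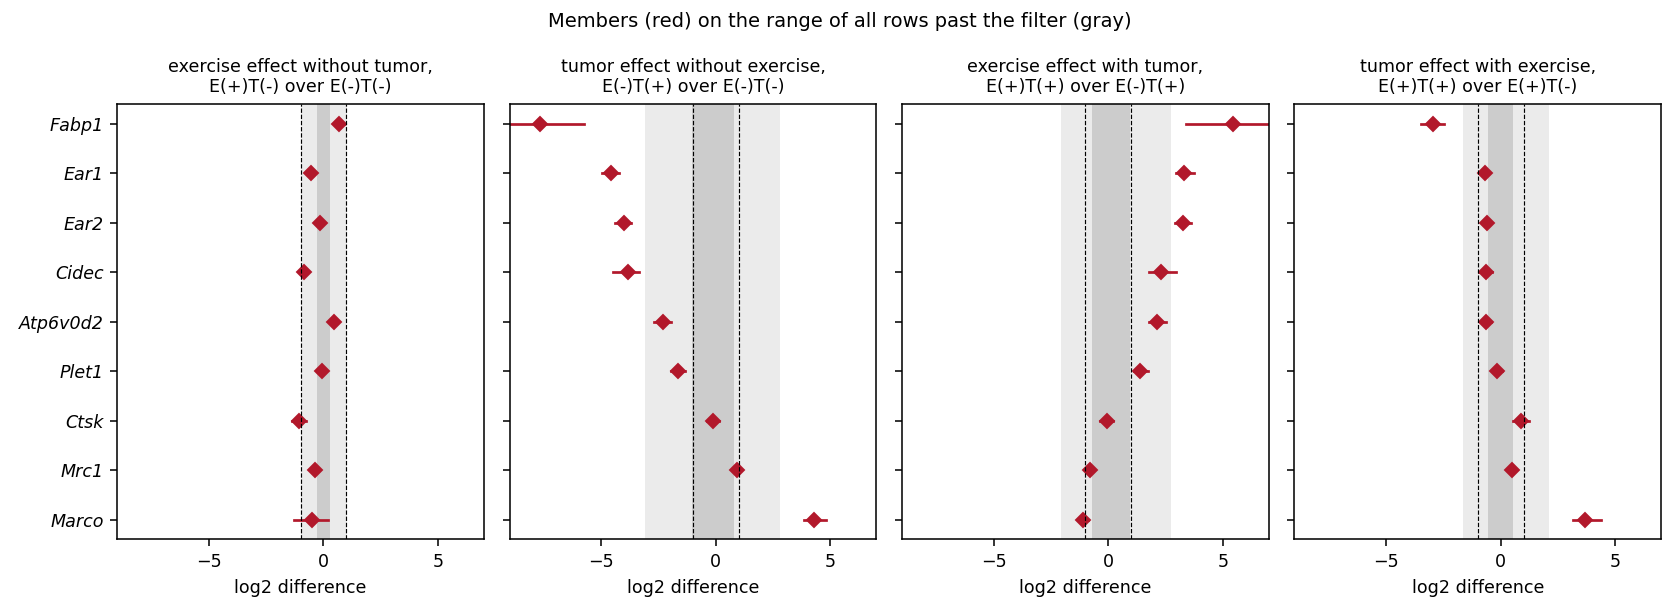
Log2 difference of the 9 members in the 4 comparisons, with exact 95% intervals of the log2 read ratio (bars that reach the edge have no finite end). Gray bands hold the middle 50% and 90% of all filtered rows, and dashed lines mark 2-fold. In the tumor effect without exercise Fabp1, Ear1, Ear2 and Cidec lie below the 90% band, which begins at -3.09, and Marco lies above it.

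Other genes known from alveolar macrophages also differed in both directions. Of 24 listed, 13 were lower and 4 higher by 2-fold or more in E(-)T(+) than in E(-)T(-), with a median of -1.20. Between E(+)T(+) and E(-)T(+), 12 were higher and 3 lower, with a median of 1.04, or 0.43 with totals alone. In the tumor effect with exercise 5 were higher and 5 lower, and in the exercise effect without tumor 2 were higher and 2 lower.

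By level, the leading genes of this list were mixed. Ctsd and the chemokine Ccl6, at 11.54, 12.03, 12.26 and 12.74, stayed within 2-fold in all 4 comparisons. Tgm2, a transglutaminase, was at 12.47, 12.58, 10.65 and 12.56. Chil3, a chitinase-like secreted protein of alveolar macrophages and neutrophils, was at 10.34, 10.81, 10.39 and 13.27, and so stood apart in E(+)T(+). Axl, a receptor for dying cells, was at 9.90, 9.95, 12.81 and 10.82. Fabp4, given above as a relative of Fabp1, is also on this list. It was at 11.05, 9.51, 12.61 and 8.88, and like Axl was highest in E(-)T(+). Itgax (CD11c), Car4 and Krt79, named after their values were seen, are genes by which these cells are often recognized. Itgax had 573, 270, 17 and 149 reads, Car4 2607, 2035, 177 and 929, and Krt79 276, 183, 13 and 186, and all 3 were lowest in E(-)T(+). These 3 do not stand for the list, of which 4 of 24 genes were higher in E(-)T(+) than in E(-)T(-). Car4 is also made by lung capillaries and Itgax by dendritic cells.

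Signals and factors that control these cells were read as a list of 20 genes, of which 18 passed the filter. Comparing E(-)T(+) with E(-)T(-), 6 were lower and 2 higher, the median being 0.31. The list also held Car4, an enzyme and no control factor, which is 1 of the 6. Pparg had 108, 75, 39 and 5 reads, so that E(+)T(+), in which 6 members were higher than in E(-)T(+), was its lowest library, with a difference of -2.65 between these libraries. The order of its reads was that of the fat cell gene Adipoq, with 327, 113, 77 and 48. As with Cidec, the part of fat cells in the Pparg values was not tested. Bach2 was at 8.31, 8.34, 6.42 and 7.88, Zbtb16 at 9.21, 9.51, 7.46 and 9.55, Egr2 at 6.15, 4.79, 4.72 and 6.03, and Cebpa at 9.92, 9.91, 8.64 and 9.74. Bach2, Zbtb16 and Cebpa were lowest in E(-)T(+), while Egr2 was low in both E(+)T(-) and E(-)T(+), with 29 and 23 reads. Cebpb was at 8.57, 8.85, 9.26 and 10.51, and Spi1, which encodes PU.1, at 7.67, 7.93, 8.11 and 10.02, both highest in E(+)T(+).

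Maf, a factor of macrophage identity, was at 7.84, 7.30, 8.62 and 7.34, and Bhlhe40 and Bhlhe41, which sustain the renewal of alveolar macrophages, were at 7.47, 7.35, 8.90 and 9.20 and at 6.88, 6.63, 7.80 and 5.78. The GM-CSF ligand Csf2 had 1, 1, 0 and 0 reads. Its receptor chain Csf2ra was at 6.59, 8.02, 7.47 and 8.02 and Csf2rb at 8.19, 8.14, 8.49 and 9.90. Tgfb1 had 3, 5, 2 and 0 reads, Tgfbr1 was at 7.64, 6.92, 7.29 and 7.37, and Tgfbr2 at 9.72, 9.20, 10.30 and 9.73. Thus Csf2 and Tgfb1, the only ligand genes listed, left few or no reads, and the receptor genes named here had reads in every library. The reads come from transcript ends and the annotation is not known. The part of these in the low counts of the ligand genes was not tested.

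Of 22 genes of surfactant lipid handling, 8 were lower and 1 higher in E(-)T(+) than in E(-)T(-), with a median of -0.70. Between E(+)T(+) and E(-)T(+), 5 were higher and 2 lower. The median there was 0.35, but it turned to -0.26 with totals alone. Nr1h3, named like Abcg1 and Abca1 after the values were seen, encodes the oxysterol receptor LXR alpha and was at 8.40, 8.67, 5.42 and 7.08, and its target Abcg1, a cholesterol exporter, at 9.83, 9.10, 7.41 and 7.62. In E(+)T(+) both were still lower than in the control. Abca1, the other exporter, was within 2-fold in all 4 comparisons, with 9.51, 8.62, 9.06 and 8.47. Lpl, lipoprotein lipase, was at 11.32, 10.63, 10.49 and 11.80, and Npc2, the lysosomal cholesterol carrier, at 13.87, 14.04, 13.61 and 14.60.

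**Figure D4:**
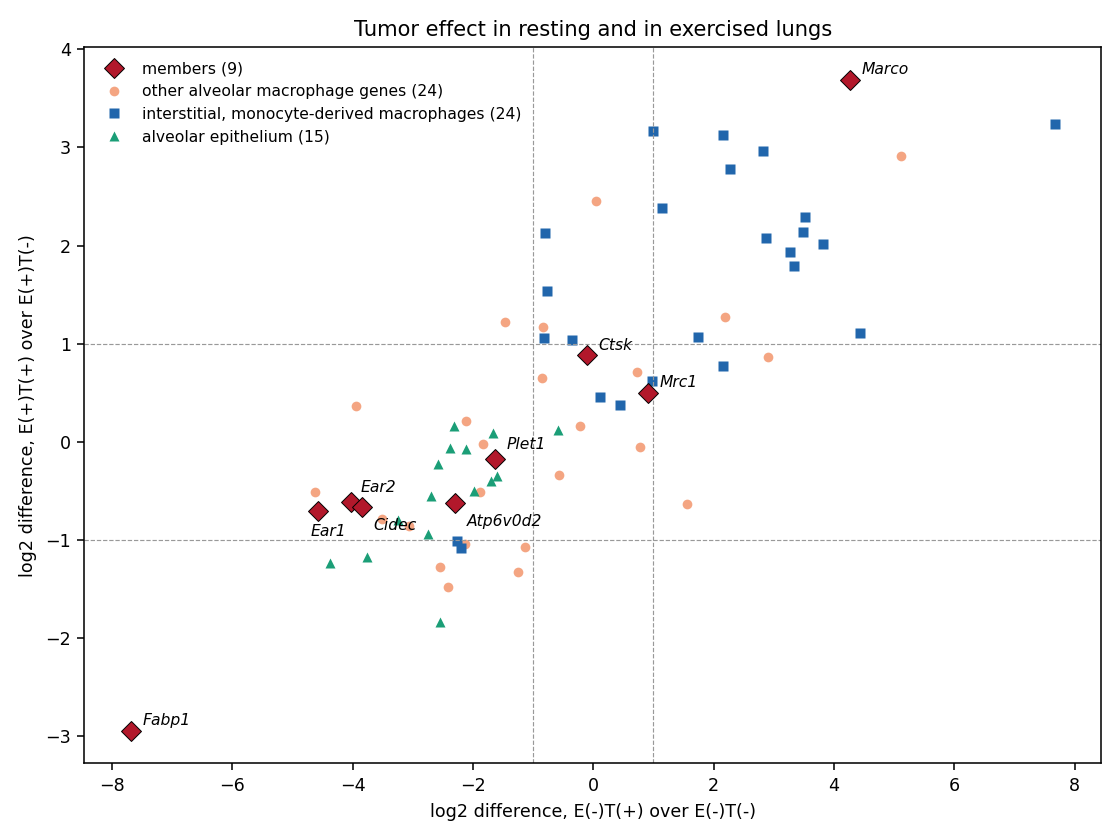
Tumor effect in resting lungs (horizontal axis) and in exercised lungs (vertical axis) for the members and 3 gene lists, as log2 differences of libraries that the axes do not share. Dashed lines mark 2-fold. Of the members 7 of 9, and all 15 alveolar epithelium genes, lie to the left of 0, while Marco lies at the upper right with many genes of interstitial and monocyte-derived macrophages.

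Markers of other macrophages moved differently from the 6 members. Of 24 genes of interstitial and monocyte-derived macrophages, 14 were higher and 2 lower with tumor in resting mice (median, 1.95), and 18 were higher and 2 lower with tumor in exercised mice (median, 1.86). Their summed normalized count was 27196, 34860, 65418 and 82882. Apoe was at 12.36, 12.63, 14.09 and 13.70, and Pf4, also a platelet gene, at 10.02, 10.61, 12.19 and 13.74. The complement gene C1qa, named after its values were seen, was at 8.37, 8.45, 11.86 and 10.59, the order of Marco apart from the tumor-free pair.

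Genes of macrophages in general had a median of 0.17 in the tumor effect without exercise, with 3 of 17 higher and 5 lower. The lysozyme genes Lyz2 and Lyz1, the first of macrophages and neutrophils and the second also of epithelium, were at 13.19, 13.30, 11.64 and 12.33 and at 13.00, 13.00, 10.48 and 12.37. They are near copies, and reads may be divided between them. Ctss stayed within 2-fold in all 4 comparisons. Cd74, a chain of antigen presentation that B cells also make, was at 12.07, 12.09, 8.19 and 11.27. Laptm5, a lysosomal membrane protein of blood cells, was at 11.05, 10.88, 10.49 and 11.96, and Fcer1g, a signal chain of antibody receptors, had 822, 911, 1200 and 3501 reads.

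The epithelium of the alveolus, which is no macrophage tissue, was also lowest in E(-)T(+). Of 15 genes, 14 were lower and none higher by 2-fold or more in E(-)T(+) than in E(-)T(-), with a median of -2.39. Between E(+)T(+) and E(-)T(+), 12 were higher and none lower, and in the tumor effect with exercise 3 were lower and 12 within 2-fold. Their summed normalized count was 256120, 302012, 38387 and 201061. Sftpc was at 16.84, 17.11, 13.59 and 16.31 and Ager at 14.63, 15.30, 11.88 and 14.36. Lymphatic and sinusoidal endothelium, which shares Mrc1 with macrophages, had 7 of 11 genes lower in E(-)T(+), and a summed count of 9027, 10278, 5755 and 16651. The summed counts of hemoglobin genes and of neutrophil genes were highest in E(+)T(+), those of neutrophil genes being 4402, 12815, 12900 and 214726, although 1 of the 13, Ltf, was lower there than in E(-)T(+). The part of these cells, of the tumor cells and of blood in the values of the members was not tested.

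The rows most like the members were found by distance. Log2 values were centred over the 4 libraries, and the Euclidean distance to the mean centred profile of the 9 members was taken for the 11207 other rows that averaged 50 or more normalized counts. The 8 nearest were Ggcx, Chchd10, Fam217b, Wnt7a, Lama4, Akap14, Mtus1 and Slc2a12, at distances from 0.092 to 0.135, against a median of 1.85 over these rows. The mean profile takes the level of Fabp1 in E(-)T(+), from 0 reads, as it stands, and the ranking without Fabp1 was not computed. None of the 8 was on a macrophage list, but those lists hold few of the 11207 rows, so this says nothing about the kind of profile. Ggcx had log2 values of 7.94, 7.73, 5.78 and 7.56, and Mtus1 of 10.67, 10.46, 8.50 and 10.24. Among the members, Plet1, at 0.35, and Atp6v0d2, at 0.69, were nearest to the mean profile, and Fabp1 and Marco, the latter at 5.46, were farthest, so the mean profile describes few of the members closely.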

How the data were processed

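Lung RNA of 4 groups was sequenced, 1 library each. Per the labels and the methods, the authors made QuantSeq 3′ libraries, whose reads come from transcript ends, aligned 75-base reads with Bowtie2 to mm10, counted reads per gene with bedtools and applied the quantile normalization of edgeR. Tool versions, the annotation and strand use were not given in the sources used here, so overlapping and antisense genes may share reads. The deposited values are log2 values at 3 decimals, found to be log2(normalized count + 1), so a difference understates the change of low genes.

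Whole reads were recovered by inverting the negative binomial quantile adjustment, with a fitted dispersion of 0.372. They gave 99.81% of the 93128 values to all 3 decimals and 100% within 0.001, and 92.7% of the counts were resolved to 1 read. The recovery was tested on simulated data. Reads gave 95% exact Poisson intervals of levels and Clopper-Pearson intervals of read ratios, scaled by effective library sizes. Polymerase copies are not independent molecules. The floor was 3 reads.

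Comparisons were differences of deposited values, with a 2-fold limit and a filter at a mean normalized count of 4, after the thresholds of the study, whose sources do not say that it used the mean. The members and gene lists were chosen with earlier results of these data known. All members are named. From each list, up to 6 genes with the highest mean level and the genes of a member's own family or of its regulators are named, beside defining markers of other cell types and exceptions marked as such, and from the likeness ranking the 8 nearest rows. Members were left out of the other lists. Coordinates and transcripts are from GENCODE M21 (GRCm38) and promoters from RefSeq. Alternatives were scaling by library totals with or without hemoglobin genes, a pseudocount of 4, no filter or a minimum of 100, and limits of 1.5-fold and 4-fold. Python 3.11.15, numpy 2.4.6, scipy 1.17.1, pandas 2.3.3 and Biopython 1.88 were used.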

Additional observations from a re-analysis of the deposited data

Results flagged for a closer look

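For 3 members the exercise effect had opposite signs without and with tumor, with counting intervals that left out 0 on each side. Ear1 was at -0.55 without tumor and 3.32 with tumor, Ear2 at -0.17 and 3.24, and Cidec at -0.87 and 2.32. The values without tumor all lay inside the middle 90% of all filtered rows, from -0.97 to 1.04. The share of all rows with opposite signs was not computed, so the count of 3 has nothing to be set against. Each value rests on 2 libraries, and the difference between the effects was not tested, since there was 1 library per group. No group held enough libraries to look for a sample apart from the others.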

How the results depend on the processing

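Of 108 single differences of the members in the 4 comparisons, under another scaling or a pseudocount of 4, 107 kept their sign, and the exception was Ctsk in the tumor effect without exercise, at -0.11 and at 0.00 with library totals alone. This leaves out E(+)T(+) over E(-)T(-), in which Mrc1 turned from 0.14 to -0.36 with totals alone and to -0.04 with hemoglobin genes left out. Library totals alone placed 7 differences on the other side of the 2-fold limit. Under it, 2 members were higher in the tumor effect without exercise, 5 were higher and 2 lower in the exercise effect with tumor, and 5 were lower in the tumor effect with exercise, and the medians of the last 2 comparisons became 1.54 and -1.02. The other scaling, the pseudocount and the filters left the counts as they were. At a 1.5-fold limit the exercise effect without tumor had 1 member higher and 2 lower, the tumor effect without exercise 2 higher, the exercise effect with tumor 2 lower, and the tumor effect with exercise 2 higher and 5 lower. At a 4-fold limit no member was lower in either exercise comparison. At that limit 5 were lower in the tumor effect without exercise, and 5 were higher in the exercise effect with tumor. The shares over all rows at the 1.5-fold and 4-fold limits were not computed, so these counts have nothing to be set against. With hemoglobin genes left out of the totals, the medians of the last 2 comparisons were 2.06 and -0.70. Depth limits Fabp1 and Siglecf in E(-)T(+). No paired analysis was possible because each group had 1 library.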
